A study of Mus musculus with 6 samples.

Results

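The 32 genes described here serve fatty acid oxidation, ketone body synthesis and PPAR-alpha control in liver tumors. They were listed by name, and they are 32 of the 35683 genes that the deposited tables hold. The RNAseq data come from 6 tumors excised from the livers of 2 male CMRtdT mice, 3 tumors from mouse 2 and 3 from mouse 1. In these mice AAV8-TBG-Cre, in which the hepatocyte promoter TBG drives Cre, deletes exon 3 of 1 *Ctnnb1* allele, so that β-catenin stays active, and switches on the *R26* tdTomato reporter. Both mice also carried the *MUP-uPA* transgene, which injures hepatocytes, and were fed a high-fat diet beginning at 6 weeks. The virus was injected at 8 weeks of age, and tumors were excised 6.5 months later, after some hours without food. All 6 tumors therefore share 1 genotype and treatment, and the animal is the only grouping in the labels. Tumors of 1 mouse share that animal, so every comparison of mouse 2 with mouse 1 compares 2 animals. No liver tissue outside the tumors and no tumor without the mutation is analysed here.

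Each tumor had 19130532 to 27681766 estimated counts. Transcripts of the mitochondrial genome took 27.2 to 37.2% of the TPM (a level per transcript length) in mouse 2 and 15.0 to 20.7% in mouse 1, which lowers the TPM of all other genes more in mouse 2. Tumor 1 of mouse 1 stood apart from the other 5 in its hepatocyte markers. Of 8 hepatocyte markers 7 were measured, all 7 had their lowest level there, and they summed to 1348 TPM, against 21700 to 36800 TPM in the other 5 tumors, with none at 0. Hepatocyte markers were thus present in all 6 tumors, and in bulk tissue fewer hepatocytes and less RNA per hepatocyte cannot be told apart. The results that rest on it are given with and without that tumor.

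Hepatocytes burn fatty acids in mitochondria and peroxisomes. Long-chain fatty acids are joined to coenzyme A, carried into mitochondria as carnitine esters and shortened in repeated rounds of β-oxidation, which pass electrons to the respiratory chain and yield acetyl-CoA. In fasting, the liver turns acetyl-CoA into ketone bodies for other organs. PPAR-alpha, a nuclear receptor that fatty acids activate, pairs with RXR and binds a repeat of AGGTCA with 1 base between the copies, called DR1, near many of these genes.

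Promoter windows, which run from 250 bases before to 50 bases after a start site and are 300 bases long, were taken from RefSeq for GRCm38 and held 27 of the 32 members. *Acat1*, *Cpt1b*, *Decr1*, *Acaa2* and *Vnn1* were without one. DR1 (AGGTCANAGGTCA, read on both strands, with up to 2 mismatches in the 12 bases other than N) occurred in 3 of the 29 windows of these 27 members, or 10.3%. It occurred in 1268 of 32851 windows of all genes, or 3.86%. The 3 members were *Slc25a20*, *Echs1* and *Etfa*, and the stretches around their matches are shown because the motif is the one the receptor reads. They are chr9:108662112-108662184 on the plus strand, chr7:140116462-140116534 on the minus strand and chr9:55512278-55512350 on the minus strand, each 5′ to 3′ on the strand of its gene, with the match in capitals.
Slc25a20: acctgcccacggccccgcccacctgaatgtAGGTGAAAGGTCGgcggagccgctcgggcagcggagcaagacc
Echs1: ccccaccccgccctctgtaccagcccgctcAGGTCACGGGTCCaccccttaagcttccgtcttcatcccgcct
Etfa: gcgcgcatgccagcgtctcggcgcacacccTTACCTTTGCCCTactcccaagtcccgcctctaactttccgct

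The *Slc25a20* match begins 6 bases after the start site. The *Echs1* match begins 83 bases before the start site, and the *Etfa* match, which reads as DR1 on the opposite strand, begins 77 bases before it. Each of the 3 matches has 2 mismatches. A match is a description of the letters and says nothing of binding.

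All 32 members averaged more than 1 TPM over the 6 tumors. The median of the 32 members was 29.0 TPM in tumor 1 of mouse 1, against 146, 159 and 146 TPM in the 3 tumors of mouse 2 and 217 and 211 TPM in the remaining pair from mouse 1. Over those 5 tumors the means of single members ran from 5.74 ± 1.07 TPM for *Cpt1b* to 992 ± 355 TPM for *Acaa1b* (SD, n = 5). Ordered by mean, neighboring members overlapped in range, except *Acaa2* above *Etfb* and *Acot2* above *Cpt1b*. The plot of the level of each member by tumor shows that tumor as the leftmost point for every gene but *Vnn1*.

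**Figure D1:**
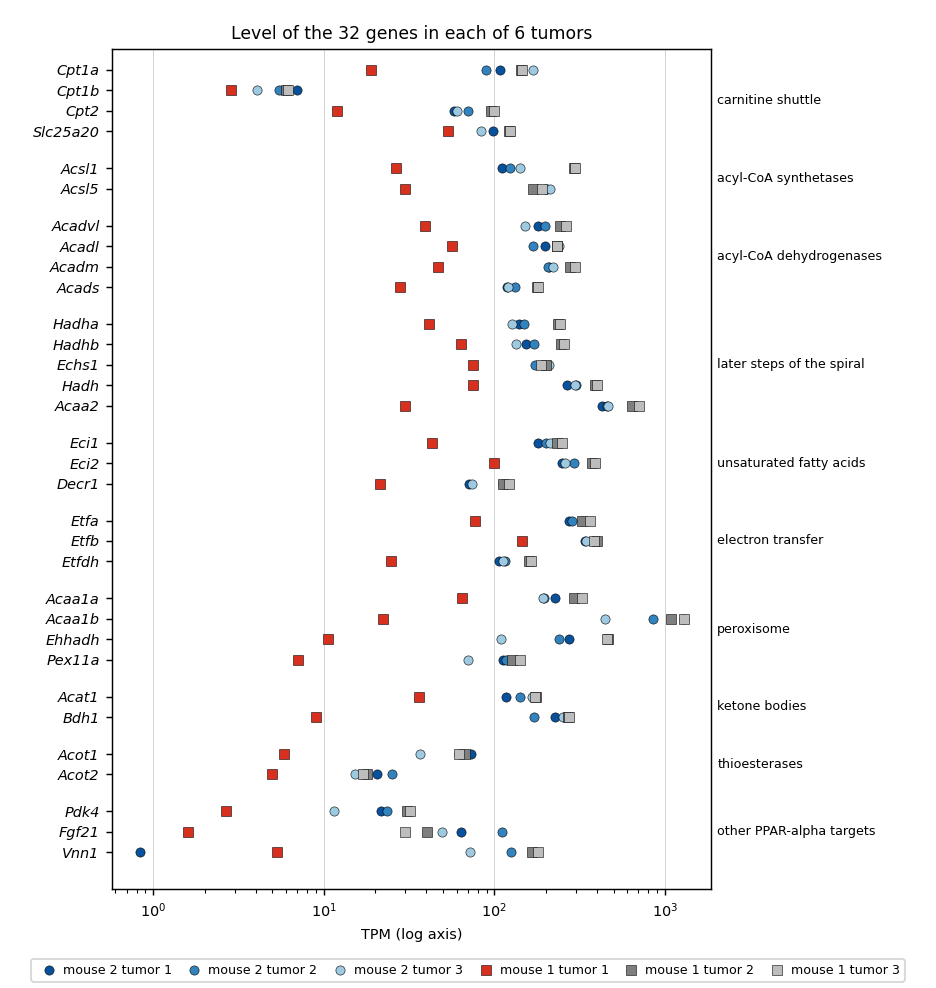
Level of the 32 members in each tumor, in TPM on a log axis, grouped by role. Circles are the tumors of mouse 2 and squares the tumors of mouse 1, and the red square, tumor 1 of mouse 1, lies lowest for 31 of 32 members.

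Tumor 1 of mouse 1 had the lowest TPM of the 6 tumors for 31 of 32 members, against 21.9% of the 12518 genes that averaged 1 TPM or more. None of the 32 had its highest TPM there, whereas 7831 of the 12518 genes did, a count made on TPM alone. On the log2(TPM + 1) scale, which understates the change of low genes, the members' median difference between that tumor and the median of the other 5 was −2.24, and the median over all 12518 genes was 0.89. On CPM (counts relative to the library total, scaled by TMM so that the bulk of genes matches between tumors) the medians were −3.37 for the members and −0.07 for all genes, so the members stood lower than the bulk of the genes on both scales. By role, the median difference was −4.26 for the 3 other PPAR-alpha targets (range −4.32 to −2.74). It was −4.22 for the 4 peroxisomal genes (−5.54 to −1.79) and −3.41 for the 2 ketone body genes (−4.66 to −2.16). The 4 carnitine shuttle genes had −1.81 (−2.85 to −0.869) and the 5 later steps of the spiral −1.83 (−3.91 to −1.38). The ranges of these roles overlapped. The 3 members with a DR1 match had differences of −1.16 for *Slc25a20*, −1.38 for *Echs1* and −2.08 for *Etfa*. All were smaller in size than the members' median of −2.24, that of *Etfa* by little. The search reached 250 bases before a start site and some members had no window. Whether a match goes with the size of the difference was not tested.

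**Figure D2:**
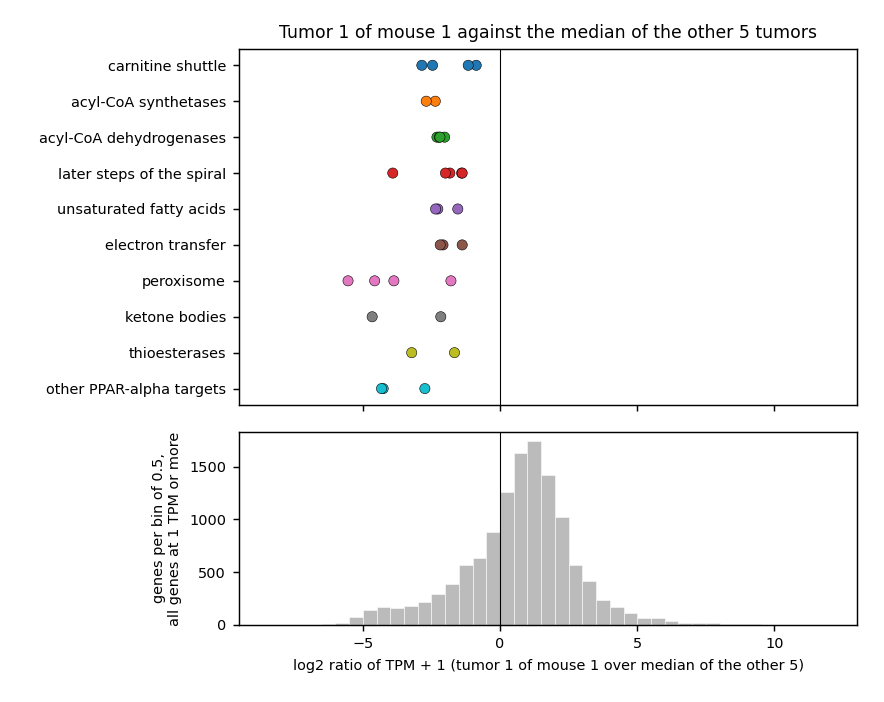
Log2 ratio of TPM + 1 in tumor 1 of mouse 1 over the median of the other 5 tumors. The upper panel gives each member as a point by role, all 32 of them below 0, and the lower panel counts all genes that averaged 1 TPM or more in bins of 0.5, with a median of 0.89.

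Other cell type markers also differed in this tumor. Cholangiocyte markers summed to 11.2 TPM, against 0.441 to 5.84 TPM elsewhere, and 3 of 4 were highest there. Macrophage markers summed to 53.5 TPM, against 147 to 574 TPM, with all 7 lowest there, and endothelial markers to 9.93 TPM, against 23.5 to 60.5 TPM, with 4 of 5 lowest there. No macrophage, endothelial or cholangiocyte marker was at 0 in this tumor. The part of these markers and of the hepatocyte markers in the members' low levels was not tested.

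The carnitine shuttle brings long-chain fatty acids into mitochondria. *Cpt1a* (chr19:3322326-3385735, GRCm38) encodes the liver form of the enzyme that makes the carnitine esters at the outer membrane. It stood at 107, 89.7 and 169 TPM in mouse 2, tumors 1 to 3, and at 19.0, 143 and 145 TPM in mouse 1, tumors 1 to 3. *Cpt1b*, the muscle form, was the lowest of the members, with 6.97, 5.46 and 4.09 TPM in mouse 2 and 2.84, 6.02 and 6.17 TPM in mouse 1, in the same order. *Cpt1a* was thus 6.69 times as high as *Cpt1b* in tumor 1 of mouse 1, against 15.4 to 41.4 times in the other 5 tumors. *Cpt1c*, the brain form and not a member, went the other way, with 38.9 TPM in tumor 1 of mouse 1, against at most 0.699 TPM in the other 5. The ratio of *Cpt1a* to *Cpt1c* was 0.49 there, against 205 to 4580 elsewhere, though it rests on 2 to 42 estimated *Cpt1c* reads in each of those 5.

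*Slc25a20*, the carrier that swaps these esters across the inner membrane, had 53.7 TPM in tumor 1 of mouse 1, against 83.9 to 124 TPM in the other 5. *Cpt2*, which returns the acyl group to coenzyme A inside, had 12.0 TPM there, against 57.7 to 99.4 TPM. The shuttle's members were therefore lowered unequally, by 1.83-fold for *Cpt1b*, 2.23-fold for *Slc25a20*, 5.50-fold for *Cpt2* and 7.21-fold for *Cpt1a* on the TPM + 1 scale.

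Acyl-CoA synthetases activate fatty acids before the shuttle. *Acsl1* (chr8:46471037-46536051) is the main long-chain form of liver, and *Acsl5* (chr19:55251861-55296628) a form of mitochondria and endoplasmic reticulum. *Acsl1* had 111, 123 and 140.5 TPM in mouse 2 and 26.7, 291 and 299 TPM in mouse 1, tumors 1 to 3 in each. *Acsl5* had 198, 203 and 213 TPM in mouse 2 and 30.0, 168 and 191 TPM in mouse 1. The ratio of *Acsl1* to *Acsl5*, which no scaling of a library changes, was 0.562 to 0.661 in the 3 tumors of mouse 2, and 0.889, 1.73 and 1.56 in tumors 1 to 3 of mouse 1. The tumors of mouse 2 had the 3 lowest ratios on the TPM of all transcripts. A transcript of 520 bases took 54.3% of the *Acsl5* TPM but 7.21% of its reads, so the level of *Acsl5* against *Acsl1* depends on it. The full transcript of 4243 bases alone stood at 89.4, 89.7 and 93.9 TPM in mouse 2 and 20.3, 75.9 and 79.1 TPM in mouse 1. Against that transcript alone, *Acsl1* had a ratio of 1.25 to 1.5 in mouse 2, and of 1.31, 3.84 and 3.77 in tumors 1 to 3 of mouse 1. On estimated reads of both genes the ratio was 1.09 to 1.29 in mouse 2, and 1.13, 3.29 and 3.21 in mouse 1, so on both of these measures tumor 1 of mouse 1 lay within the range of mouse 2.

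4 acyl-CoA dehydrogenases take the first step of β-oxidation on chains of falling length. *Acadvl* (very long), *Acadl* (long), *Acadm* (medium) and *Acads* (short) averaged 206.7 ± 45.5, 214 ± 29.8, 242 ± 42.0 and 146 ± 30.9 TPM over the 5 tumors (SD, n = 5). In tumor 1 of mouse 1 they had 39.4, 56.3, 46.7 and 28.1 TPM. Their differences on the log2(TPM + 1) scale lay between −2.30 and −2.02, so the 4 were lowered to a like degree.

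*Hadha* and *Hadhb* encode the 2 subunits of the mitochondrial trifunctional protein, which takes the remaining steps on long chains. They lie head to head on chromosome 5 of GRCm38. The *Hadha* start site is at 30154980 on the minus strand and the *Hadhb* start site at 30155253 on the plus strand, 273 bases away, and their promoter windows share 228 bases. The *Hadhb* window is shown because its first 228 of 300 bases lie in the *Hadha* window too. It is chr5:30155003-30155302 on the plus strand, and capitals mark the 50 bases from the *Hadhb* start site on, which lie outside the *Hadha* window.
Hadhb: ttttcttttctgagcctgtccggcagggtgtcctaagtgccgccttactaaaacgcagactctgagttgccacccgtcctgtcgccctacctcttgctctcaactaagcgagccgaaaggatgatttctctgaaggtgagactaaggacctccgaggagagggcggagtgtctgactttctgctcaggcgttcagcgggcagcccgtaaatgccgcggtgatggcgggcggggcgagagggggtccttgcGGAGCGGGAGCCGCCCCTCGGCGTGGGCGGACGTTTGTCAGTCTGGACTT

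*Hadha* had 139, 149 and 126 TPM in mouse 2 and 41.2, 235 and 242 TPM in mouse 1, tumors 1 to 3 in each. *Hadhb* had 154, 169.8 and 135 TPM in mouse 2 and 63.8, 246 and 256 TPM in mouse 1. The ratio of *Hadha* to *Hadhb* was 0.645 in tumor 1 of mouse 1, against 0.877 to 0.956 elsewhere, so the pair kept a narrow ratio in those 5. The transcripts of *Hadha* annotated as coding held 37.3% of its TPM. The transcript of 2552 bases, whose coding sequence is not defined in the annotation, held 61.4%.

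The other enzymes of the spiral act on shorter chains. *Acaa2*, the mitochondrial thiolase that splits off acetyl-CoA, was the second highest member over the 5 tumors, at 539 ± 124 TPM (SD, n = 5), and had 29.9 TPM in tumor 1 of mouse 1. It was 15.1-fold lower there on the TPM + 1 scale, whereas the hydratase gene *Echs1* (74.7 TPM, against 173 to 208 TPM) was 2.59-fold lower and the dehydrogenase gene *Hadh* (75.0 TPM, against 265 to 399 TPM) 3.96-fold lower. *Eci1* and *Eci2*, which shift double bonds so that unsaturated chains can enter the spiral, and *Decr1*, a reductase for such chains, were also lowest in that tumor. *Eci1* had 43.2 TPM in tumor 1 of mouse 1, against 179.9 to 248 TPM in the other 5, *Eci2* 100.2, against 250.3 to 389 TPM, and *Decr1* 21.3, against 71.0 to 122 TPM.

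Electron transfer flavoprotein (*Etfa* and *Etfb*) takes the electrons from the dehydrogenases, and *Etfdh* hands them to ubiquinone. The median coefficient of variation of this group over the 5 tumors was 11.4% on TPM, the lowest of the role groups, against 21.8% for all 32 members. It was not the lowest on TMM-scaled CPM, at 17.1%, where the dehydrogenases had 10.3% and all 32 members 18.1%. *Etfa* had 76.9 TPM in tumor 1 of mouse 1, against 275 to 362 TPM in the other 5. *Etfb* had 145 TPM there, against 339.9 to 401 TPM, and *Etfdh* 24.7 TPM, against 106 to 165 TPM.

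Peroxisomes shorten very long chains with enzymes of their own. *Acaa1b*, a peroxisomal thiolase and the highest of the 32 members over the 5 tumors, had 1286, 848 and 446 TPM in mouse 2 and 22.2, 1081 and 1296 TPM in mouse 1, tumors 1 to 3 in each. In tumor 1 of mouse 1 it was 46.6-fold lower on the TPM + 1 scale than the median of the other 5, and 0.184% of all genes were as low or lower there. Its neighbor *Acaa1a*, 184 kb away on chromosome 9, had 227, 197 and 194 TPM in mouse 2 and 64.9, 294 and 329 TPM in mouse 1. The ratio of *Acaa1b* to *Acaa1a* was 0.342 in tumor 1 of mouse 1, against 2.31 to 5.66 elsewhere.

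*Ehhadh* (chr16:21761285-21787834), the bifunctional enzyme of peroxisomal β-oxidation, had 273, 239 and 109 TPM in mouse 2 and 10.6, 461 and 459 TPM in mouse 1. Tumor 1 of mouse 1 was lowest and tumor 3 of mouse 2 next. *Pex11a*, which drives the division of peroxisomes, had 113, 118 and 70.2 TPM in mouse 2 and 7.09, 127 and 141 TPM in mouse 1, with the same 2 tumors lowest.

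Of the ketone body genes, *Bdh1* (chr16:31422297-31458901), which interconverts acetoacetate and β-hydroxybutyrate, had 228, 172 and 253 TPM in mouse 2 and 9.04, 271 and 272 TPM in mouse 1. It was 25.3-fold lower in tumor 1 of mouse 1 on the TPM + 1 scale. *Acat1*, the thiolase that makes acetoacetyl-CoA, had 36.3 TPM in that tumor, against 118 to 176 TPM elsewhere. *Oxct1*, which other organs use to burn ketone bodies and hepatocytes normally lack, is not a member and had 33.5 TPM in tumor 1 of mouse 1, against 1.00 to 3.37 TPM in the other 5. The ratio of *Bdh1* to *Oxct1* was therefore 0.27 there, against 61.2 to 239 elsewhere.

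*Acot1* and *Acot2*, neighbors on chromosome 12 that are 15.6 kb apart, release fatty acids from coenzyme A in the cytosol and in mitochondria. *Acot1* had 72.6, 62.4 and 36.6 TPM in mouse 2 and 5.82, 67.1 and 61.8 TPM in mouse 1. *Acot2* had 20.4, 25.3 and 15.3 TPM in mouse 2 and 4.96, 17.9 and 17.0 TPM in mouse 1. *Pdk4*, which blocks pyruvate dehydrogenase and so spares glucose, had 21.7, 23.4 and 11.5 TPM in mouse 2 and 2.67, 30.6 and 32.2 TPM in mouse 1. All 3 genes were lowest in tumor 1 of mouse 1 and, on TPM, next lowest in tumor 3 of mouse 2. On TMM-scaled CPM that second place held for *Pdk4* but not for *Acot1* and *Acot2*.

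*Fgf21* (chr7:45613890-45615490) encodes a hormone that the liver releases in fasting. It had 64.1, 111 and 49.0 TPM in mouse 2 and 1.61, 40.4 and 29.8 TPM in mouse 1, tumors 1 to 3 in each. The 3 tumors of mouse 2 were the 3 highest, and tumor 1 of mouse 1, with 22 estimated reads, was the lowest.

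The members that share sequence with other genes have uncertain levels. In the annotated transcripts, 42.7% of the words of 31 bases in the main *Acaa1a* transcript also occur in *Acaa1b*, and 28.7% of those of *Acot1* in *Acot2*. The share was 88.8% for *Cpt1b* with *Gm44502*, a read-through with its neighbor, 68.0% for *Etfb* with *Etfbl*, 65.2% for *Hadhb* with *Hadhb-ps*, 14.8% for *Eci2* with *Eci3* and 11.7% for *Acadm* with *Gm5131*. None of those last 5 partners was above 0.376 TPM in any tumor.

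The spread between tumors was counted with and without tumor 1 of mouse 1. A difference of at least 4-fold between highest and lowest tumor on the TPM + 1 scale was seen for 26 of 32 members over 6 tumors, against 46.9% of all genes, and for 2 of 32 over 5 tumors, against 5.56% of all genes. These 2 were *Ehhadh* and *Vnn1*, and on TMM-scaled CPM + 1 they were *Fgf21* and *Vnn1*, against 5.37% of all genes. Dixon's ratio on log2(TPM + 1), which marks a value that stands apart from the rest, marked 25 of 32 members over 6 tumors, against 38.8% of all genes, each of them in tumor 1 of mouse 1. Over 5 tumors it marked 2 of 32, against 5.21% of all genes, namely *Vnn1* in tumor 1 of mouse 2 and *Acot1* in tumor 3 of mouse 2. On TMM-scaled CPM the mark of *Vnn1* stayed (0.906) and that of *Acot1* was lost (0.47), while *Cpt1b*, *Acads*, *Hadh*, *Eci1* and *Acat1* were marked, so that 6 of 32 members were marked, against 8.53% of all genes. On TPM both shares over 5 tumors were near those of all genes. The closest pair was formed by tumors 2 and 3 of mouse 1, with a median fold of 1.05 over the 32 members and a largest of 1.36 for *Fgf21*, yet their counts differed beyond sampling noise (chi-square over degrees of freedom 7.76).

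*Vnn1* (chr10:23894688-23905344), a pantetheinase induced by PPAR-alpha, was the single member whose lowest tumor was not tumor 1 of mouse 1. It had 0.832, 125 and 72.1 TPM in mouse 2 and 5.31, 167 and 179.8 TPM in mouse 1, tumors 1 to 3 in each, so tumor 1 of mouse 2 lacked nearly all of it. That value rests on 36 estimated reads, against 2601 to 7673 in the other 4 of the 5 tumors. In a count made after these values were seen, *Vnn1* was the single gene of 11324 with a TPM + 1 in tumor 1 of mouse 2 at least 8-fold under the next of the 5 tumors. The number of such genes was 4 in tumor 2 of mouse 2, 14 in tumor 3 of mouse 2, 3 in tumor 2 of mouse 1 and 1 in tumor 3 of mouse 1. *Vnn3*, its nearest measured neighbor and a related gene, kept 40.0, 38.3 and 63.2 TPM in mouse 2 and 1.42, 63.6 and 66.0 TPM in mouse 1. The ratio of *Vnn1* to *Vnn3* was 0.0208 in tumor 1 of mouse 2, against 1.14 to 3.75 in every other tumor. Of the 9 genes measured within 1 Mb, *Vnn1* included, none other was more than 4-fold lower in tumor 1 of mouse 2 than in each of the other 4.

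**Figure D3:**
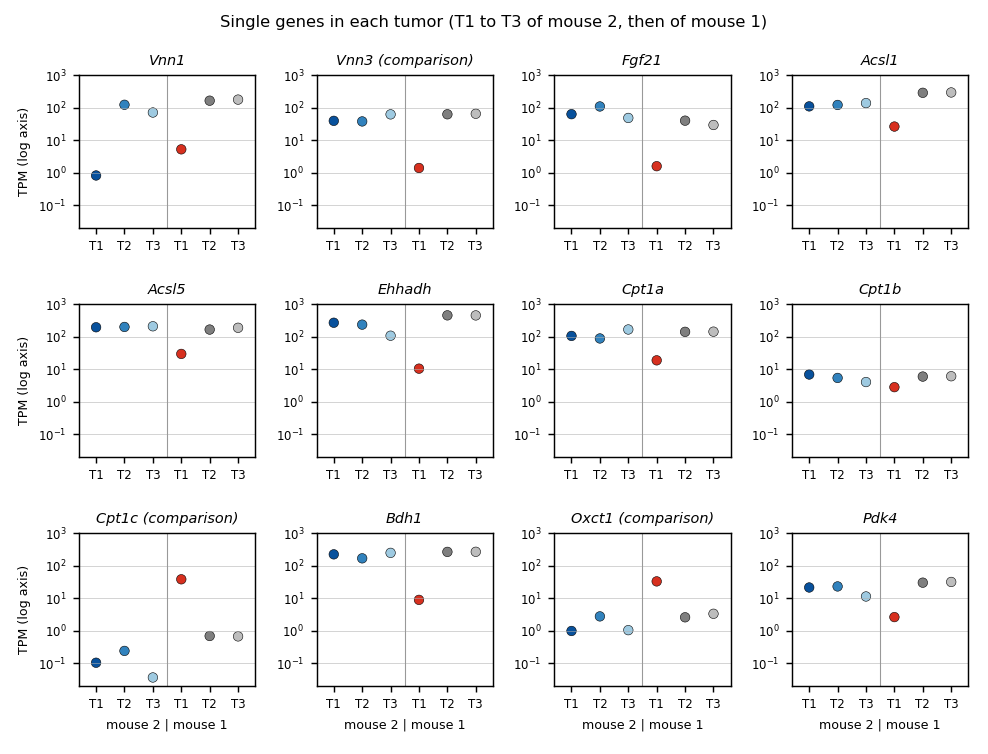
TPM on a log axis of 9 members and 3 comparison genes in tumors T1 to T3 of mouse 2 (blue) and of mouse 1 (red for T1, gray for T2 and T3). *Vnn1* lies at 0.832 TPM in tumor 1 of mouse 2, and *Cpt1c* and *Oxct1* lie highest in tumor 1 of mouse 1.

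Tumor 3 of mouse 2 had another balance within the pathway, a pattern picked out after its values were seen. It was the lowest of the 5 tumors for all 4 peroxisomal members on TPM and for 3 of 4 on TMM-scaled CPM, and for both ketone body genes, all 3 electron transfer genes and 3 of 4 dehydrogenases it was the highest on TMM-scaled CPM. In all, 16 of 32 members were highest there on TMM-scaled CPM and 4 of 32 on TPM, so this count depends on the scale. On TMM-scaled CPM its log2 differences from the median of the 5 tumors were −1.14 for *Ehhadh*, −0.60 for *Pdk4* and −0.54 for *Acaa1b*, and 0.96 for *Cpt1a*, 0.72 for *Acadl* and 0.71 for *Bdh1*. Ratios within a tumor are free of scaling. The ratio of *Ehhadh* to *Cpt1a* was 0.643 in tumor 3 of mouse 2, against 2.54 to 3.22 in the other 4 of the 5 tumors, with 0.554 in tumor 1 of mouse 1. The ratio of *Pdk4* to *Cpt1a* was 0.0679 in tumor 3 of mouse 2, against 0.203 to 0.261 in the other 4.

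**Figure D4:**
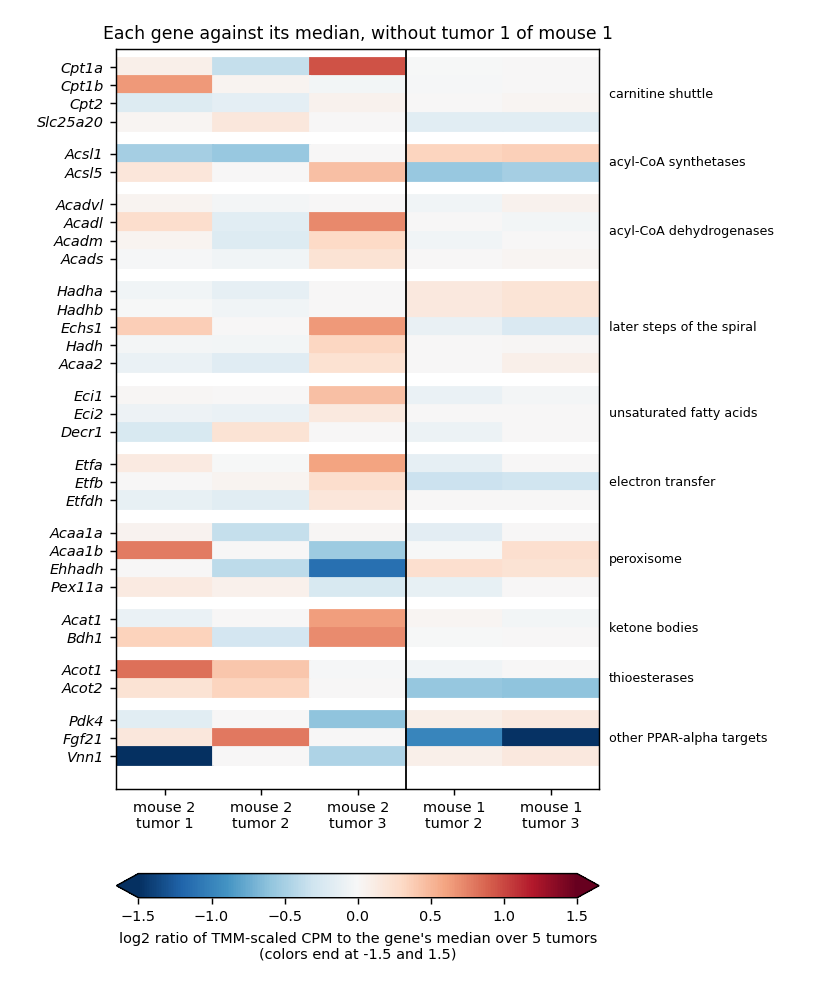
Log2 ratio of TMM-scaled CPM to the median of each member over the 5 tumors without tumor 1 of mouse 1, as color from −1.5 to 1.5, with the tumors of mouse 2 left of those of mouse 1. Tumor 3 of mouse 2 is blue for *Ehhadh*, *Acaa1b*, *Pex11a* and *Pdk4* and red for *Cpt1a*, *Bdh1* and *Acat1*.

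Mouse 2 was compared with mouse 1 to ask whether the members differed between the 2 animals. With all 6 tumors, edgeR called 0 of 32 members and 0.0% of 13268 genes at an adjusted p under 0.05. The lowest adjusted p of a member was 0.544 in edgeR, for *Acot2*. At an unadjusted p under 0.05 there were 0 members, against 10.9% of all genes. The estimate was above 0 for 29 of 32 members, against 6236 of 13268 genes. The members' median was 0.62 on the log2 scale, against −0.04 for all genes. DESeq2 with 6 tumors called 0 of 32 members and 202 of 13268 genes, and limma-voom called 0 of both.

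Without tumor 1 of mouse 1, edgeR called 0 of 32 members and 1.26% of 13374 genes. At an unadjusted p under 0.05 there were 5 members, 4 higher and 1 lower in mouse 2, against 20.0% of all genes. The members' estimates were 23 above and 9 below 0, with a median of 0.08, against 0.01 for all genes, of which 6850 of 13374 were above 0. This balance turned with the scaling. On library size alone 11 members were above and 21 below 0, against 3975 of 13374 genes above 0. Their median there was −0.177, against −0.245 for all genes.

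*Fgf21* had the largest estimate. Its log2 fold change in edgeR was 1.59 (SE 0.298, adjusted p = 0.0631), and it was called by DESeq2 (1.58, adjusted p = 5.67e-05) and by limma-voom (1.57, adjusted p = 0.0451). *Acot2* had 0.79 in edgeR (SE 0.145, adjusted p = 0.0613), and was called by DESeq2 (adjusted p = 0.000434) and limma-voom (adjusted p = 0.0492). *Acsl5* had 0.77 in edgeR (SE 0.191, adjusted p = 0.106) and was called by DESeq2 alone (adjusted p = 0.00355). DESeq2 thus called 3 members as higher in mouse 2, against 5.85% of all genes, and limma-voom 2 members, against 1.32%. The estimates were smaller in edgeR on library size alone, where none of the 3 was called. They were 1.35 for *Fgf21* (adjusted p = 0.122), 0.54 for *Acot2* (adjusted p = 0.204) and 0.50 for *Acsl5* (adjusted p = 0.151). *Acsl1* had the opposite sign, −0.67 in edgeR (SE 0.221, adjusted p = 0.177). *Vnn1* had −0.90 with an SE of 1.39, wider than the estimate, and within mouse 2 its level ran from 0.832 to 125 TPM.

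**Figure D5:**
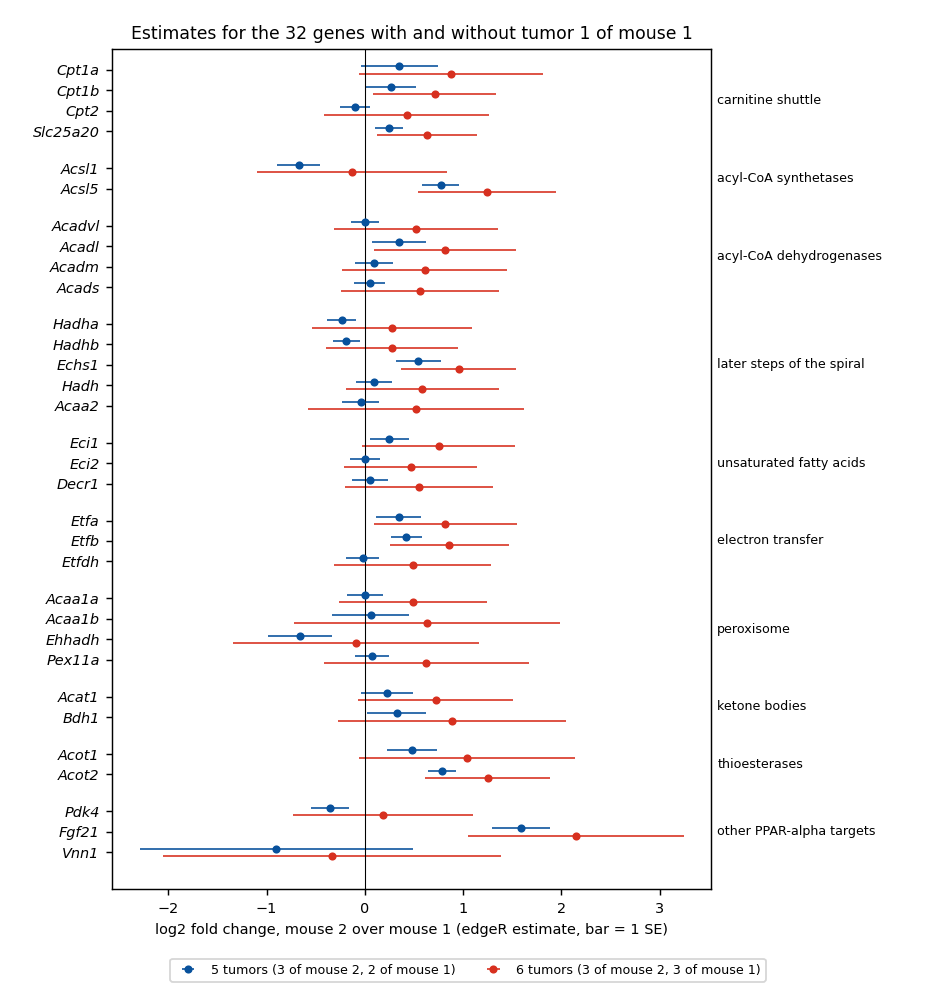
Log2 fold change of mouse 2 over mouse 1 for each member from edgeR, with bars of 1 SE. Blue points leave out tumor 1 of mouse 1 and red points include it, and the SE shrinks for all 32 members when it is left out.

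Over the same 5 tumors, the tumors of mouse 2 lay wholly above those of mouse 1 on TPM for 2 of 32 members, *Acsl5* and *Fgf21*, against 4.81% of all genes. They lay wholly below for 20 of 32, against 56.9% of all genes. On TMM-scaled CPM they lay above for 7 of 32 members, against 23.9%, and below for 6 of 32, against 19.8%. The 7 were *Slc25a20*, *Acsl5*, *Echs1*, *Eci1*, *Etfb*, *Acot2* and *Fgf21*, and the 6 were *Acsl1*, *Hadha*, *Hadhb*, *Ehhadh*, *Pdk4* and *Vnn1*. Both shares of the members were near those of all genes.

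Of 56 measured genes on a list of other genes of the pathway, 44 were lowest and 7 highest in tumor 1 of mouse 1, with a median log2 difference of −2.10. Over all 12518 genes, 21.9% were lowest and 7831 highest there, all counted on TPM alone. Most of the pathway list thus had its lowest level in the same tumor as the members. *Fabp1*, the fatty acid carrier of the hepatocyte cytosol, had 5792, 6978 and 6359 TPM in mouse 2 and 172, 5448 and 5757 TPM in mouse 1, tumors 1 to 3 in each. *Ppara* itself, chosen for its role, had 46.9, 48.2 and 76.5 TPM in mouse 2 and 2.07, 78.5 and 89.4 TPM in mouse 1. *Plin2*, a coat protein of lipid droplets, had 477, 832 and 455 TPM in mouse 2 and 49.5, 715 and 738 TPM in mouse 1. All 3 were lowest in tumor 1 of mouse 1. Between the mice, edgeR called 0 of the 52 tested genes of this list with 6 tumors, against 0.0% of all genes. At an unadjusted p under 0.05 there were 5 of the 52, against 10.9% of all genes. With 5 tumors edgeR called 0, against 1.26% of all genes, and limma-voom 0, against 477 of 13374 genes. DESeq2 called 6, against 10.2% of all genes. In edgeR 10 of the 52 had an unadjusted p under 0.05 with 5 tumors, against 20.0% of all genes.

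A list of 19 lipogenesis genes, which serve the making of fat, was taken as the opposing pathway. Of these 19, 11 were lowest and 2 highest in tumor 1 of mouse 1, with a median log2 difference of −1.45. Over all 12518 genes, 21.9% were lowest and 7831 were highest there, again on TPM alone. Whether this list differs from the members was not tested. *Scd1*, which makes monounsaturated fatty acids and had the highest mean TPM of the list, had 1225, 1023 and 1594 TPM in mouse 2 and 72.6, 587 and 608 TPM in mouse 1, so it too was lowest in tumor 1 of mouse 1. *Acly* was highest in that tumor, at 223 TPM, against 22.3 to 52.7 TPM in the other 5. *Fasn* had 74.7 TPM there, against 67.2 to 171 TPM. On TPM, *Fasn*, *Acaca*, *Elovl6* and *Srebf1* lay within the range of the other 5, so on that scale the list did not fall as a whole. The median log2 difference over all genes in that tumor was 0.89 on TPM and −0.07 on TMM-scaled CPM. This list was not counted on TMM-scaled CPM.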

How the data were processed

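RNAseq values of 6 tumors, 3 from each of 2 CMRtdT mice, were used. The expected counts (estimated reads per Ensembl transcript) were deposited by the authors without normalization, and the deposited TPM values had been divided by effective length and depth. The tables have the layout of Salmon. The submitters' processing notes list GRCm38, BWA and Picard. The release of the transcript index was not given in these sources. Libraries were poly A enriched according to the methods, although the labels name total RNA.

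Transcripts were matched by Ensembl ID to GENCODE vM39, a GRCm39 annotation used for names alone, with 114813 matched and 1733 not, and values were summed per gene. Unmatched transcripts held 0.373 to 0.68% of the counts. Gene positions and promoters came from RefSeq tables of GRCm38. The totals were 19130532 to 27681766 estimated counts, and the precision of a level follows its reads and covers counting error only.

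Members and lists were chosen with earlier results of these data known, and some genes that the rule for named genes selects are not reported here. All 32 members are named. Other genes are named where a result turns on them or they share reads with a member, with up to 3 per list by mean TPM.

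Mouse 2 was compared with mouse 1 on rounded expected counts, using the two-sided quasi-likelihood test of edgeR 4.0.16 after filterByExpr and TMM. P-values were adjusted by Benjamini-Hochberg over all genes tested, with a threshold of 0.05. These p-values measure the spread between tumors of 1 animal. The SE given for edgeR is the size of the estimate divided by the square root of the F value of its test. DESeq2 1.42.0, limma-voom (limma 3.58.1), other scalings, no filter, a block by tumor number and the omission of each tumor were alternatives. The fits were tested on simulated data. Other counts used TPM or CPM scaled by TMM, with a pseudocount of 1 and a minimum mean of 1 TPM. Dixon's ratio used critical values of 0.625 for 6 tumors and 0.71 for 5. Dixon's ratio over 5 tumors, the counts of tumors that do not overlap, the scales for tumor 3 of mouse 2 and for the spread over 5 tumors, and the *Acsl5* transcript measures were added after the data were seen. Software was Python 3.11.15 (pandas 2.3.3, numpy 2.4.6, scipy 1.17.1, matplotlib 3.10.9) and R 4.3.3.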

Additional observations from a re-analysis of the deposited data

Results flagged for a closer look

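Dixon's ratio, the gap between the end tumor and the next divided by the whole range, marks a level that stands far from the others, and chance marks about 1 in 20 genes. Over 6 tumors it passed its critical value for 25 members, each time because tumor 1 of mouse 1 lay far below the rest. For fatty acid activation and the carnitine shuttle the ratio was *Cpt1a* 0.706, *Cpt2* 0.737 and *Acsl5* 0.88. For the dehydrogenases it was *Acadvl* 0.705, *Acadl* 0.758, *Acadm* 0.8 and *Acads* 0.775. In the later steps of the spiral it was *Hadha* 0.631, *Echs1* 0.817, *Hadh* 0.754 and *Acaa2* 0.841. The genes for unsaturated chains had *Eci1* 0.816, *Eci2* 0.674 and *Decr1* 0.686, and those of electron transfer *Etfa* 0.822, *Etfb* 0.836 and *Etfdh* 0.765. The peroxisomal genes had *Acaa1a* 0.673, *Acaa1b* 0.735 and *Pex11a* 0.759. The ketone body genes, thioesterases and *Fgf21* had *Acat1* 0.743, *Bdh1* 0.861, *Acot1* 0.718, *Acot2* 0.679 and *Fgf21* 0.657. The hepatocyte markers were also at their lowest in this tumor, and their part in these marks was not tested.

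Over the 5 tumors without tumor 1 of mouse 1, it passed the critical value for 5 tumors in 2 members. *Vnn1* had 0.803 because of its low level in tumor 1 of mouse 2, and *Acot1* had 0.762 because of its low TPM in tumor 3 of mouse 2. On TMM-scaled CPM *Vnn1* had 0.906, whereas *Acot1* had 0.47 and was no longer marked. The shares of all genes marked were 38.8% over 6 tumors and 5.21% over 5 tumors.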

How the results depend on the processing

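Tumor 1 of mouse 1 decides most counts. Without each tumor in turn, the genes edgeR called between the mice ranged from 0 to 168, the 168 being those without tumor 1 of mouse 1, and members called stayed at 0. The members at least 4-fold apart ranged from 2 to 26, and the 2 are those without that tumor. With all 6 tumors, DESeq2 called 202 genes where edgeR called 0. Without tumor 1 of mouse 1, DESeq2 called 1369 genes and 3 members, limma-voom 477 genes and 2 members, and edgeR on library size alone 151 genes and no member. Over those 5 tumors, Dixon's ratio marked 6 members on TMM-scaled CPM, against 2 on TPM. The tumor numbers do not pair the tumors (correlations of 0.0246, −0.0441 and 0.0498), and with the number as a replicate block edgeR called 0 genes and 0 members, with 6 tumors or 5. *Acsl1* turned to 0.49 on the log2 scale with limma-voom and to 0.51 with the replicate block, and ranged from −0.67 to 0.25 when each tumor was left out. *Vnn1* ranged from −0.98 to 0.25 likewise, and was above 0 without tumor 1 of mouse 2, tumor 2 of mouse 1 or tumor 3 of mouse 1. The causes were not tested. Of 64 mean levels of members under 2 alternatives, 57 moved by less than 1 SD over 6 tumors, which tumor 1 of mouse 1 widens. The others were *Cpt1b* 7.25, *Slc25a20* 138, *Acadl* 259.8, *Echs1* 239.8, *Etfa* 380.0 and *Etfb* 457 TPM with mitochondrial genes left out, and *Hadha* 58.0 TPM with coding transcripts alone. With mitochondrial genes left out every member's mean rose, and the members' median level went from 166.2 to 226.8 TPM. Depth limits the lowest values, such as 22 estimated reads of *Fgf21* in tumor 1 of mouse 1.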
